A study of Mus musculus with 50 samples.

Results

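The brains of mouse embryos homozygous for a mutant allele of Gtf2i were compared with the brains of wild-type embryos by RNA sequencing. The comparison used 6 of the 50 samples of the series, and these were 6 of its 18 RNA libraries. The members were chosen by their genotype labels, 3 libraries labelled gtf2i/gtf2i against 3 labelled wt for the same cross, and by no measured value. All 6 libraries came from whole brains at E13.5 in strain FVB/ANTJ, and no treatment is named. Another 3 libraries of the cross, labelled gtf2i and read as carrying 1 mutant allele, entered the same fit and are shown beside the others. How the mutant allele was made, and the sex and litter of each embryo, are not given in the sources used here. Each sample title starts with a number, 11619, 12301 or 12419, and each number holds 1 embryo of each of the 3 genotypes. Embryos are named by that number, and values are given in the order 11619, 12301, 12419. The labels do not say what the number stands for, nor whether embryos are separate litters, so the p-values measure only the spread between these samples.

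Gtf2i encodes TFII-I, a transcription factor that binds initiator and E-box elements of promoters and also has a cytoplasmic form that restrains calcium entry. It is a paralog of Gtf2ird1 and Gtf2ird2. In humans GTF2I and GTF2IRD1 lie together in the segment lost in Williams syndrome, a disorder with a distinctive cognitive and social profile. At the stage sampled, the mouse forebrain is making its early cortical neurons: radial glia divide at the ventricle, give rise to Eomes-positive intermediate progenitors, and these give rise to Tbr1-, Neurod2- and Neurod6-positive glutamatergic neurons.

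Total counts in the 6 libraries ranged from 4433537 to 7231162 over 11708 genes, all of which entered the test. The smallest count of any gene was 13, which alone carries a counting error of 27.7%, and the lowest library median was 174 counts, with an error of 7.58%. Genes called in a comparison had an adjusted p (Benjamini-Hochberg) under 0.05 in edgeR's quasi-likelihood test. Levels are CPM, a gene's read count scaled to the library's size with TMM factors. Brain identity was checked on marker lists: all 32 neuronal genes and all 29 genes of the dorsal telencephalon were in the table, against 0 of 10 skeletal muscle genes and 1 of 11 genes of eye, pigment and olfactory epithelium. Transcripts shorter than 200 bases took 0.548% of counts in the gtf2i/gtf2i embryo 12419 and 0.692% in the wt embryo 12419, against 1.27% to 2.77% in the other 4 libraries.

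In gtf2i/gtf2i brains 110 of the 11708 genes were called, 48 higher and 62 lower than in wt. This was 0.94% of the genes tested, 0.41% in the higher and 0.53% in the lower direction, and 1684 genes (14.4%) had an unadjusted p under 0.05. DESeq2 called 2.65% of the genes. The median log2 fold change over all genes was 0.00. Differences were moderate: the median size among the called genes was 0.79 on the log2 scale, and 26 of them exceeded 2-fold, 12 higher and 14 lower. All 110 called genes had the 3 gtf2i/gtf2i libraries wholly outside the range of the 3 wt libraries, which was true of 17.1% of all genes tested, and all 110 had the same sign within each of the 3 numbers. With the number as a replicate block, 624 genes were called (5.33% of those tested), and these included all 110. The block called 238 genes higher (2.03%) and 386 lower (3.3%).

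**Figure D1:**
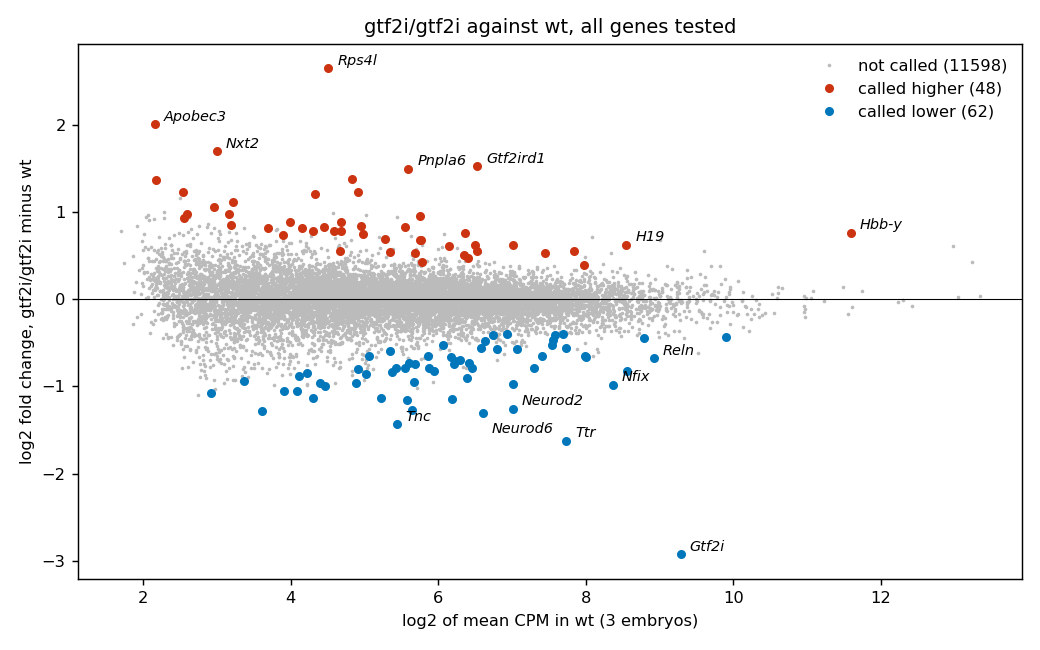
Log2 fold change of gtf2i/gtf2i against wt (vertical axis) plotted against the log2 of the mean wt CPM (horizontal axis) for all 11708 genes, each point 1 gene. The 48 genes called higher are red and the 62 called lower are blue. Gtf2i lies lowest at -2.93 and Rps4l highest at 2.64.

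The targeted gene checks the labels. Gtf2i (ENSMUSG00000060261, chr5:134237832-134317678 of GRCm38.p6) stood at 81.5, 82.7 and 82.1 CPM in the gtf2i/gtf2i embryos, at 364, 375 and 363 CPM in the gtf2i embryos and at 598, 656 and 617 CPM in the wt embryos. The 3 genotypes did not overlap, and the gtf2i/gtf2i embryos kept 13.2% of the wt mean and the gtf2i embryos 58.9%. The log2 fold change of gtf2i/gtf2i against wt was -2.93 ± 0.08 (SE), with an adjusted p of 2.79e-11 in edgeR's quasi-likelihood test. The two-sided exact permutation test on CPM gave p = 0.1, the smallest value that 3 embryos against 3 allow. Which part of the gene the remaining reads cover was not tested.

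Gtf2ird1, the neighbouring paralog, moved the other way. It encodes a factor with the same helix-loop-helix-like repeats as TFII-I. Its level was 268, 284 and 246 CPM in gtf2i/gtf2i, 138, 126 and 143 CPM in gtf2i and 97.9, 83.9 and 95.3 CPM in wt embryos. The groups again did not overlap, with the gtf2i embryos in between, so that fewer intact Gtf2i alleles went with a higher Gtf2ird1 level. The rise in gtf2i/gtf2i was 2.88-fold (log2 1.52 ± 0.09 SE, adjusted p = 5.61e-07, edgeR's quasi-likelihood test). The step from wt to gtf2i was 0.55 ± 0.09 (SE) on the log2 scale, with an adjusted p of 0.15 in that test, 0.055 with the replicate block and 0.000855 in DESeq2. Gtf2ird2, the third member, had 32.5, 37.3 and 33.8 CPM in gtf2i/gtf2i against 34.4, 31.9 and 33.1 CPM in wt. Its groups overlapped, and its log2 difference was 0.06 ± 0.11 (SE, adjusted p = 0.859, edgeR's quasi-likelihood test).

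The region before the Gtf2ird1 start is shown because that gene rose together with the loss of its paralog, and because GGATTA is the core of the sequences that GTF2IRD1 is known to bind. The sequence is the RefSeq promoter of GRCm38.p6, chr5:134456667-134456966 on the minus strand, from 250 bases before the start to 50 after it, printed 5′ to 3′ with GGATTA or its reverse complement in capitals.
Gtf2ird1: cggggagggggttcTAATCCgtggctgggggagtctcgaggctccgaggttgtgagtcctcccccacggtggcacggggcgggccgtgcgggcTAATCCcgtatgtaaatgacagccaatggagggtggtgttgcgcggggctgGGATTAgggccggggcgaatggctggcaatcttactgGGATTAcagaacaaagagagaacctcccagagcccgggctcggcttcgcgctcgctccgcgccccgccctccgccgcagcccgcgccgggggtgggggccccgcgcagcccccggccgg
GGATTA was found 4 times on either strand, at positions -236, -157, -106 and -69 from the start. Of 32851 RefSeq promoters of the same length, 7.06% held it at least once, 0.359% at least 2 times and 0.00609%, which is 2 promoters, at least 4 times. Among genes with a promoter entry, 6 of 37 called higher (16.2%) and 4 of 43 called lower (9.3%) held the motif, against 6.52% of the genes in the table. Besides Gtf2ird1, the genes called higher with 1 match were Ace, Tcirg1, Afap1l2, Dbx1 and Adgrv1, and those called lower were Aldoc, Hpca, Sv2b and Prr18. A match describes letters in this window, not a binding site.

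No other neighbour of Gtf2i on chromosome 5 was called. Of 27 tested genes within 1500 kb of the Gtf2i start, only Gtf2i and Gtf2ird1 were called. The remaining 25 ran from -0.51 (Fzd9, a Wnt receptor) to 0.24 (Hip1, an endocytic adaptor) on the log2 scale, and 0 of them were called, with 4 at an unadjusted p under 0.05 (14.4% of all genes) in edgeR's quasi-likelihood test. With the replicate block, Clip2, a microtubule-tip linker protein, had an adjusted p of 0.0322 and Stx1a, a synaptic membrane fusion protein, had 0.0309 in edgeR's quasi-likelihood test, both lower in gtf2i/gtf2i. Of 35 genes listed for the Williams syndrome region and its flanks, 23 were in the table, and 1 was called higher (Gtf2ird1) and 2 lower (Gtf2i and Galnt17), against 0.41% and 0.53% of all genes. The list's median was -0.07, against 0.00 over all genes. Galnt17, a glycosyltransferase gene of the flank, had 19.7, 23.0 and 26.8 CPM in gtf2i/gtf2i against 39.4, 35.4 and 49.2 CPM in wt, with no overlap. It fell by 0.83 ± 0.16 (SE) on the log2 scale (adjusted p = 0.0287, edgeR's quasi-likelihood test), and this call was lost on leaving out 4 of the 6 libraries singly (gtf2i/gtf2i 11619 and 12301, wt 11619 and 12419), where the adjusted p reached up to 0.153. Caln1, a neuronal calcium-binding protein gene of the same flank, had a larger difference of -1.03 ± 0.24 (SE) with an adjusted p of 0.0576, and 0.0104 with the replicate block. The block raised the list's members called lower from 2 to 5, while lower calls over all genes went from 0.53% to 3.3%.

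**Figure D2:**
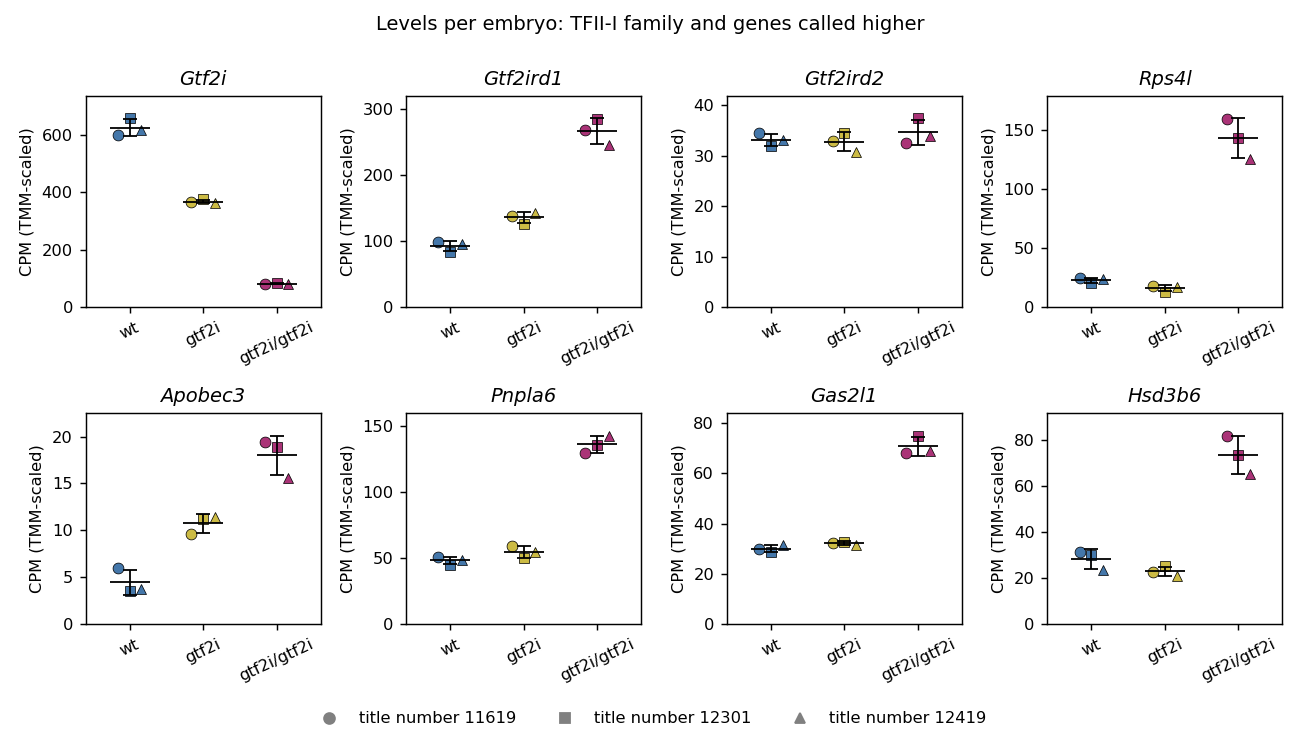
TMM-scaled CPM (vertical axis, from 0) in each embryo of the 3 genotypes for the TFII-I family and for 5 of the genes called higher; symbols mark the title number, long bars the mean and whiskers the SD (n = 3). The gtf2i/gtf2i embryos lie apart from the wt embryos in every panel but Gtf2ird2, and the gtf2i embryos lie between them for Gtf2i, Gtf2ird1 and Apobec3.

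Only 12 genes rose more than 2-fold, and those named here have varied known roles. Rps4l rose the most: its level was 160, 144 and 126 CPM in gtf2i/gtf2i against 24.4, 20.2 and 23.8 CPM in wt. That was 6.29-fold, or 2.64 ± 0.13 (SE) on the log2 scale, with an adjusted p of 7.44e-08 in edgeR's quasi-likelihood test. The gtf2i embryos did not share it, with 18.3, 13.1 and 17.0 CPM. RefSeq lists Rps4l as a transcribed pseudogene of chromosome 6 with a close relation to Rps4x, so reads may have been split between them by the authors' counting and the value is uncertain. Rps4x, a ribosomal protein gene, had a log2 difference of 0.27 ± 0.15 (SE, adjusted p = 0.462, edgeR's quasi-likelihood test).

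Apobec3, a cytidine deaminase that restricts retroviruses, was the second in size. It had 19.5, 18.9 and 15.6 CPM in gtf2i/gtf2i, 9.62, 11.2 and 11.5 CPM in gtf2i and 6.01, 3.58 and 3.81 CPM in wt embryos. No gtf2i/gtf2i embryo reached down to a gtf2i embryo, and no gtf2i embryo to a wt embryo. The rise was 2.00 ± 0.20 (SE) on the log2 scale in gtf2i/gtf2i (adjusted p = 0.000182, edgeR's quasi-likelihood test), and the gtf2i embryos stood 1.26 ± 0.21 (SE) above wt with an adjusted p of 0.15. Nxt2, a cofactor of messenger RNA export, had 22.9, 26.8 and 28.2 CPM in gtf2i/gtf2i against 8.01, 6.97 and 8.98 CPM in wt, without overlap. It rose by 1.69 ± 0.17 (SE) on the log2 scale (adjusted p = 0.000182, edgeR's quasi-likelihood test). Both genes were under 10 CPM in each wt embryo.

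Pnpla6 encodes neuropathy target esterase, a phospholipase that maintains axons. Its level was 130, 136 and 143 CPM in gtf2i/gtf2i against 51.0, 45.2 and 48.7 CPM in wt, so that the lowest gtf2i/gtf2i embryo lay well above the highest wt embryo. The rise was 2.81-fold (log2 1.49 ± 0.09 SE, adjusted p = 8.06e-07, edgeR's quasi-likelihood test). Gas2l1, a linker of actin and microtubules, stood at 68.0, 74.8 and 68.9 CPM against 29.9, 28.7 and 31.6 CPM, again with no overlap, and rose 2.35-fold (adjusted p = 1.17e-05, edgeR's quasi-likelihood test). Hsd3b6, a steroid dehydrogenase of a family of near-identical genes whose reads may be shared, stood at 82.0, 73.8 and 65.4 CPM against 31.5, 30.4 and 23.7 CPM and rose 2.59-fold (adjusted p = 0.0001, edgeR's quasi-likelihood test). These 3 genes, with Gtf2i, Gtf2ird1, Rps4l, Apobec3 and Nxt2, were the 8 genes called under all 16 alternative settings.

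The rest of the 12 largest rises spanned 1.05 to 1.37 on the log2 scale. Tcirg1, a subunit of the vacuolar proton pump, rose by 1.37 ± 0.23 (SE), Ace, angiotensin-converting enzyme, by 1.23 ± 0.21 and Tmem267, a membrane protein, by 1.21 ± 0.13. The unnamed locus Gm38534 rose by 1.11 ± 0.16 and Afap1l2, an adaptor of the kinase Src, by 1.05 ± 0.18. In all of them the gtf2i/gtf2i embryos lay above the wt embryos without overlap, which the rule for naming them required. Tcirg1 lost its call without the gtf2i/gtf2i embryo 11619, the gtf2i/gtf2i embryo 12301 or the wt embryo 12419 (adjusted p up to 0.08, edgeR's quasi-likelihood test), and the other 4 kept theirs under each omission.

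Of 29 genes of the dorsal telencephalon and its glutamatergic neurons, 10 were called lower and 0 higher, against 0.53% of all genes called lower. The median log2 fold change of the list was -0.47, 26 of its 29 members had a negative value, and 20 were lower in gtf2i/gtf2i within each of the 3 numbers, while 39.5% of all genes had 1 sign, higher or lower, in all 3. With the replicate block 15 were called lower and 1 higher, against 3.3% and 2.03% of all genes. In a bulk sample, fewer cells of a type and less RNA per cell cannot be told apart.

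Neurod6 and Neurod2, basic helix-loop-helix factors of differentiating cortical projection neurons, had the largest falls of the list. Neurod6 was at 36.4, 34.3 and 47.5 CPM in gtf2i/gtf2i against 85.7, 85.6 and 121 CPM in wt. Every gtf2i/gtf2i embryo lay below every wt embryo, and the difference within each number was nearly the same, at -1.24, -1.32 and -1.35 on the log2 scale. The fit gave -1.30 ± 0.15 (SE), an adjusted p of 0.000533 in edgeR's quasi-likelihood test. Neurod2 stood at 53.8, 49.8 and 58.6 CPM against 119, 101 and 166 CPM, which is no overlap, and fell by 1.25 ± 0.15 (SE) on the log2 scale (adjusted p = 0.000762, edgeR's quasi-likelihood test). The gtf2i embryos, at 110, 112 and 119 CPM for Neurod6 and 147, 134 and 152 CPM for Neurod2, lay within the wt range of both genes.

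The starts of these genes are shown because the pair fell together and both factors recognise E-boxes such as CAGATG. Both are RefSeq promoters of GRCm38.p6 on the minus strand, of the same span as above, chr11:98329596-98329895 for Neurod2 and chr6:55681214-55681513 for Neurod6, with CAGATG or its reverse complement in capitals.
Neurod2: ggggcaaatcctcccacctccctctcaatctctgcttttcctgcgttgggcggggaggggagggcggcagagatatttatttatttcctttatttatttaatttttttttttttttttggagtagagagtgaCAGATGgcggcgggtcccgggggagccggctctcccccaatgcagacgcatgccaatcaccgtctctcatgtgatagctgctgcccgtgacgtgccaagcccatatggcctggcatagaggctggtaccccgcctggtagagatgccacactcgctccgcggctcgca
Neurod6: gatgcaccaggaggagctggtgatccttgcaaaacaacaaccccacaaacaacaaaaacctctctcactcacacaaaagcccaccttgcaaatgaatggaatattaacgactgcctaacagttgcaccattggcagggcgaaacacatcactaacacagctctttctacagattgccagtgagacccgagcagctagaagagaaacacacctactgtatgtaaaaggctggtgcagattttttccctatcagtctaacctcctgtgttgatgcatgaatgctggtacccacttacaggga
The Neurod2 promoter held CAGATG once, at position -118 from the start, a motif present in 17.2% of the 32851 promoters. Among genes with a promoter entry, 7 of 37 called higher (18.9%) and 10 of 43 called lower (23.3%) held CAGATG. The share over all tested genes with an entry was 13.2%. The Neurod6 promoter held neither CAGATG nor GGATTA nor CACGTG, the E-box form found in 7.15% of promoters, on either strand. The same was true of the promoters of Tbr1 and Eomes.

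Of 4 nuclear factor I genes in the table, 3 fell, against 0.53% of all genes called lower, and these are also in the dorsal list. These factors drive the switch of radial glia toward later neurogenesis and glia. Nfix was at 166, 151 and 184 CPM in gtf2i/gtf2i against 332, 258 and 398 CPM in wt, so no embryo of one group reached the other. It fell by 0.98 ± 0.14 (SE) on the log2 scale (adjusted p = 0.00377, edgeR's quasi-likelihood test). Nfib stood at 193, 188 and 258 CPM against 327, 346 and 455 CPM, also without overlap, and fell by 0.82 ± 0.13 (SE, adjusted p = 0.0104, edgeR's quasi-likelihood test). Nfia fell by 0.53 ± 0.11 (SE, adjusted p = 0.0455, edgeR's quasi-likelihood test). Nfic, the family's other member in the table, had a difference of 0.32 ± 0.13 (SE) with an adjusted p of 0.271. Nfib lost its call without the gtf2i/gtf2i embryo 11619 (adjusted p = 0.0748), and Nfia lost it on every omission but that of the gtf2i/gtf2i embryo 12419 (adjusted p up to 0.212).

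Tbr1, a T-box factor of deep-layer and preplate neurons, varied little within groups: it was at 105, 112 and 106 CPM in gtf2i/gtf2i against 169, 156 and 185 CPM in wt. The highest gtf2i/gtf2i embryo lay under the lowest wt embryo, and Tbr1 fell by 0.65 ± 0.08 (SE) on the log2 scale (adjusted p = 0.00154, edgeR's quasi-likelihood test). Eomes, which marks intermediate progenitors, was at 45.3, 55.6 and 36.3 CPM against 75.1, 66.4 and 74.5 CPM and fell by 0.66 ± 0.13 (SE, adjusted p = 0.034, edgeR's quasi-likelihood test). Its difference was uneven over the numbers, at -0.73, -0.26 and -1.04. Bcl11b, a factor of subcortically projecting neurons, fell by 0.67 ± 0.12 (SE) and Bhlhe22, a cortical patterning factor, by 0.73 ± 0.12. Bcl11b, Bhlhe22 and Eomes each lost their call on omission of 3 of the 6 libraries, with adjusted p up to 0.137, 0.0731 and 0.147; the gtf2i/gtf2i embryo 11619 and the wt embryo 12419 were among the 3 for each of them. The remaining library was the gtf2i/gtf2i embryo 12301 for Bcl11b and Bhlhe22 and the wt embryo 11619 for Eomes.

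Genes that specify the dorsal progenitors were not called. Pax6, a radial glia factor, had 92.3, 104 and 85.7 CPM in gtf2i/gtf2i against 89.9, 103 and 78.7 CPM in wt, with overlap and a log2 difference of 0.06 ± 0.13 (SE). Neurog2, the proneural factor upstream of the Neurod genes, had -0.03 ± 0.08 (SE, adjusted p = 0.92, edgeR's quasi-likelihood test), with overlapping groups. Neurog1, its relative, had 0.60 ± 0.18 (SE) with an adjusted p of 0.115, and 0.0478 with the replicate block. Emx1, a dorsal progenitor factor, had -0.67 ± 0.23 (SE, adjusted p = 0.179, edgeR's quasi-likelihood test), and its differences within the numbers were -0.59, -0.04 and -1.56. Fezf2, a factor of corticospinal neurons, had -0.47 ± 0.13 (SE) with an adjusted p of 0.093, and 0.0465 with the replicate block.

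**Figure D3:**
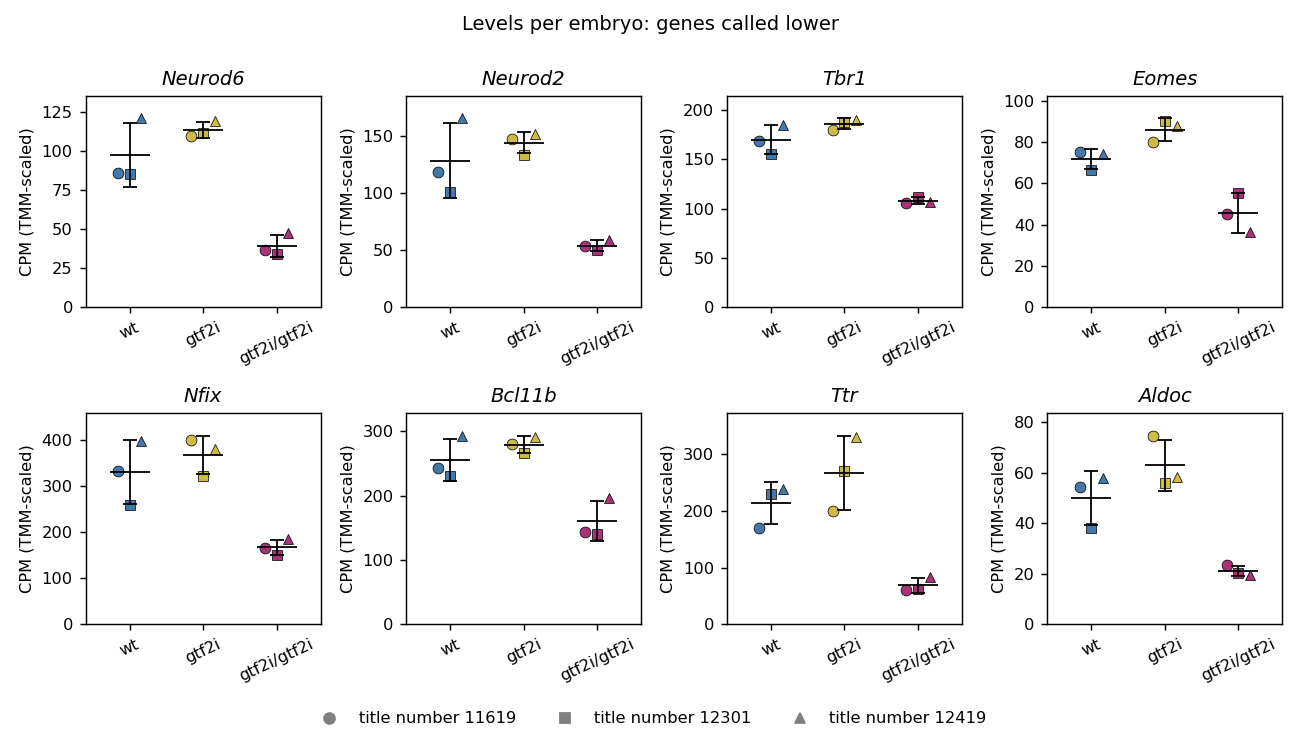
TMM-scaled CPM (vertical axis, from 0) in each embryo of the 3 genotypes for 8 genes called lower in gtf2i/gtf2i; symbols mark the title number, long bars the mean and whiskers the SD (n = 3). In each panel all 3 gtf2i/gtf2i embryos lie below all 3 wt embryos, and the gtf2i embryos lie above all gtf2i/gtf2i embryos as well.

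The number of dorsal genes called lower depended on single embryos. It was 8 without the gtf2i/gtf2i embryo 12301, 5 without 11619 and 15 without 12419, where 23, 16 and 736 (6.29%) of all genes were called lower. It was 8, 9 and 5 without the wt embryos 11619, 12301 and 12419, where 29, 51 and 12 of all genes were. Neurod6, Neurod2, Nfix and Tbr1 were called in each of these fits.

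Of 9 listed X-linked genes that escape inactivation and Y-linked genes, 4 were in the table and 0 were called, with 3 at an unadjusted p under 0.05 in edgeR's quasi-likelihood test (14.4% of all genes) and 0 called by DESeq2. Their median was 0.30, and their summed level was 655 to 832 CPM in gtf2i/gtf2i against 555 to 648 CPM in wt. The groups did not overlap for Kdm5c and Ddx3x, an RNA helicase at 0.28 ± 0.11 (SE), and overlapped for Kdm6a and Eif2s3x. Kdm5c, a histone demethylase, was at 394, 312 and 385 CPM in gtf2i/gtf2i, at 378, 401 and 395 CPM in gtf2i and at 286, 303 and 288 CPM in wt embryos. All gtf2i/gtf2i and gtf2i embryos were above all wt embryos, though the gtf2i/gtf2i embryo 12301 exceeded the highest wt embryo by little, and the log2 difference was 0.31 ± 0.09 (SE, adjusted p = 0.103, and 0.0489 with the replicate block, edgeR's quasi-likelihood test). With Kdm5c as a covariate 8 genes were called, and 0 of the 29 dorsal genes were among them. Neurod6 then had a log2 difference of -1.49 with an adjusted p of 0.139 in edgeR's quasi-likelihood test, and Neurod2 had -1.28 with an adjusted p of 0.419. On the log2 scale the covariate moved Pax3 to 0.18, Eomes to -0.31, Hbb-y to 0.30, Irx2 to 0.33, Dbx1 to 0.24, Dmbx1 to 0.42, Dlx1 to -0.25 and Nfia to -0.81, each by over 1.5 times. In the pair of number 12301, where the Kdm5c difference was 0.04 on the log2 scale, Neurod6 differed by -1.32, Neurod2 by -1.03, Tbr1 by -0.47, Eomes by -0.26 and Emx1 by -0.04. In the pairs 11619 and 12419, where it was 0.46 and 0.42, these were -1.24 and -1.35 for Neurod6, -1.14 and -1.50 for Neurod2, -0.68 and -0.80 for Tbr1, -0.73 and -1.04 for Eomes and -0.59 and -1.56 for Emx1. The part of embryo sex in the results was not tested otherwise.

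Of 26 genes of the ventral telencephalon and its GABAergic lineage, 2 were called lower and 0 higher, against 0.53% and 0.41% of all genes, with a median of -0.11. Sst, the peptide somatostatin of a class of interneurons, was at 26.8, 25.2 and 23.4 CPM in gtf2i/gtf2i against 53.7, 37.1 and 38.6 CPM in wt and fell by 0.78 ± 0.17 (SE) on the log2 scale (adjusted p = 0.0406, edgeR's quasi-likelihood test). Dlx1, a homeobox factor of the ganglionic eminences, was at 139, 156 and 137 CPM against 205, 195 and 174 CPM and fell by 0.41 ± 0.09 (SE, adjusted p = 0.0414, edgeR's quasi-likelihood test). Neither gene's groups overlapped, and each lost its call on omission of 4 of the 6 libraries (adjusted p up to 0.136 and 0.185); for both, these included the gtf2i/gtf2i embryo 11619 and the wt embryos 11619 and 12419. The fourth was the gtf2i/gtf2i embryo 12301 for Sst and the wt embryo 12301 for Dlx1. The replicate block called 6 of the list lower (3.3% of all genes), among them Npy, neuropeptide Y, at -0.92 ± 0.27 (SE; adjusted p = 0.107 without and 0.0251 with the block). Gad1 and Gad2, the enzymes that make GABA, were at -0.22 and 0.05.

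Of 34 genes of the diencephalon, midbrain and hindbrain in the table, 2 were called higher and 0 lower, against 0.41% and 0.53% of all genes. The median was 0.20, and 27 had a positive value. Pax3, a factor of the dorsal neural tube, was at 41.2, 28.8 and 45.9 CPM in gtf2i/gtf2i against 17.4, 27.0 and 21.5 CPM in wt and rose by 0.82 ± 0.18 (SE) on the log2 scale (adjusted p = 0.0485, edgeR's quasi-likelihood test). The margin between the lowest gtf2i/gtf2i and the highest wt embryo was small. The Pax3 difference was 1.25, 0.10 and 1.10 within the numbers, where Kdm5c differed by 0.46, 0.04 and 0.42, and with Kdm5c as a covariate it was 0.18 (adjusted p = 0.832, edgeR's quasi-likelihood test). Irx2, an Iroquois patterning factor, was at 72.8, 67.7 and 81.0 CPM against 48.5, 52.97 and 52.2 CPM, with no overlap, and rose by 0.53 ± 0.10 (SE, adjusted p = 0.0238, edgeR's quasi-likelihood test). Pax3 lost its call on omission of 3 libraries and Irx2 of 4, with adjusted p up to 0.183 and 0.0963; these were the gtf2i/gtf2i embryo 11619 and the wt embryos 11619 and 12419, and for Irx2 also the wt embryo 12301. Foxa2, a floor plate factor, had 0.86 ± 0.21 (SE; adjusted p = 0.0683, and 0.0312 with the replicate block, which called 6 of the list and 2.03% of all genes higher). Dbx1, Nkx6-1 and Dmbx1, homeobox factors of the ventricular zone, the ventral neural tube and the midbrain that no list held, rose by 0.68 ± 0.12, 0.97 ± 0.14 and 0.82 ± 0.16 (SE), and were chosen after their values were seen. Nkx6-1 kept its call on omission of each library, while Dbx1 and Dmbx1 lost theirs without the gtf2i/gtf2i embryo 11619 or the wt embryo 11619 or 12419, and Dmbx1 also without the wt embryo 12301.

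Of 22 radial glia genes, 2 were called lower and 0 higher, against 0.53% and 0.41% of all genes, and the median was 0.06. Tnc, the matrix protein tenascin C, was at 14.9, 11.9 and 20.8 CPM in gtf2i/gtf2i against 45.2, 40.7 and 43.8 CPM in wt, less than the lowest wt embryo by a wide margin. It fell by 1.43 ± 0.22 (SE) on the log2 scale (adjusted p = 0.00639, edgeR's quasi-likelihood test). Aldoc, a glycolytic enzyme of radial glia and astrocytes, was at 23.4, 20.3 and 19.4 CPM against 54.2, 38.1 and 58.1 CPM, without overlap, and fell by 1.27 ± 0.17 (SE, adjusted p = 0.00224, edgeR's quasi-likelihood test). Both kept their calls on omission of each library. The general progenitor genes Sox2, Nes and Vim had 0.08, 0.39 and 0.38, and with the replicate block 6 of the list were called higher and 2 lower, against 2.03% and 3.3% of all genes.

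Transthyretin had the largest fall of the called genes after Gtf2i. Ttr, a carrier of thyroid hormone and retinol made by the choroid plexus, was at 59.8, 62.2 and 84.3 CPM in gtf2i/gtf2i against 170.5, 231 and 239 CPM in wt. The groups were far apart, and Ttr fell by 1.63 ± 0.18 (SE) on the log2 scale, 3.10-fold (adjusted p = 0.000532, edgeR's quasi-likelihood test). It was the only called gene of 14 for choroid plexus and roof plate, whose median was 0.15, against 0.53% of all genes called lower. The replicate block called 1 of the list higher and 1 lower, against 2.03% and 3.3% of all genes. Rspo2, a Wnt amplifier of the roof plate, had 0.51 ± 0.14 (SE, adjusted p = 0.0872, and 0.0373 with the replicate block, edgeR's quasi-likelihood test). Other genes of the choroid plexus epithelium were not called: Folr1, a folate receptor, had 0.78, Clic6, a chloride channel, had -0.10 and Enpp2, which makes lysophosphatidic acid, had -0.13.

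Of 32 neuronal and synaptic genes, 1 was called lower and 0 higher, against 0.53% and 0.41% of all genes. The median was -0.26 with 28 negative values, and the replicate block called 13 lower (3.3% of all genes). Nsg1, a neuronal endosomal protein, had -0.37 ± 0.09 (SE, adjusted p = 0.0598, and 0.00877 with the block, edgeR's quasi-likelihood test). Camk2b, a calcium/calmodulin-dependent kinase of synapses, was at 25.2, 25.7 and 47.1 CPM in gtf2i/gtf2i against 65.2, 70.5 and 83.2 CPM in wt and fell by 1.14 ± 0.20 (SE) on the log2 scale (adjusted p = 0.0179, edgeR's quasi-likelihood test). The gtf2i/gtf2i embryo 12419 stood above the other gtf2i/gtf2i embryos for Camk2b, and the call was lost without the gtf2i/gtf2i embryo 11619 or 12301 or the wt embryo 12419 (adjusted p up to 0.0988, edgeR's quasi-likelihood test). Grin1, the obligate subunit of NMDA receptors, had -0.99 ± 0.25 (SE; adjusted p = 0.0683, and 0.0117 with the block) and Cplx1, a regulator of vesicle release, -0.79 ± 0.23 (0.103, and 0.00666 with the block). Without the gtf2i/gtf2i embryo 12419 the count of neuronal genes called lower was 21, in a fit that called 6.29% of all genes lower, and without the gtf2i/gtf2i embryo 11619 it was 0. The general neuronal genes Tubb3, Map2 and Dcx had -0.11, -0.14 and -0.21. Outside the list, and chosen after their values were seen, the synaptic genes Sv2b, Syt7, Dlgap1 and Nptxr fell by 1.00, 0.57, 0.88 and 0.75. Sv2b kept its call on omission of each library, Syt7 lost it on omission of any but the gtf2i/gtf2i embryo 12419 and the wt embryo 12301, and Dlgap1 and Nptxr on omission of any but the gtf2i/gtf2i embryo 12419.

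The remaining large falls were of genes of varied roles. Tiam2, an activator of the GTPase Rac, fell by 1.16 ± 0.22 (SE) on the log2 scale and Gpr26, an orphan receptor of the brain, by 1.14 ± 0.21. Slc30a10, a manganese exporter, fell by 1.13 ± 0.23 and Nxph3, a ligand of neurexins, by 1.07 ± 0.22. No gtf2i/gtf2i embryo overlapped a wt embryo in any of these genes, which the rule for naming them required. Their adjusted p ran from 0.0197 to 0.0353 in edgeR's quasi-likelihood test, and each lost its call on omission of at least 3 of the 6 libraries, among them the gtf2i/gtf2i embryos 11619 and 12301 and the wt embryo 12419, with adjusted p up to 0.105 for Tiam2, 0.0969 for Gpr26, 0.172 for Slc30a10 and 0.153 for Nxph3.

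The clustered protocadherins, cell-surface proteins that give neurons individual identities, had a median of -0.51 over 29 genes, with 25 negative. Pcdhb16 was at 5.50, 5.11 and 4.59 CPM in gtf2i/gtf2i against 9.34, 12.8 and 14.4 CPM in wt and fell by 1.28 ± 0.20 (SE) on the log2 scale (adjusted p = 0.0091, edgeR's quasi-likelihood test). Pcdhgb6 fell by 0.65 ± 0.12 (SE, adjusted p = 0.0224, edgeR's quasi-likelihood test). These 2 were the called members, against 0.53% of all genes called lower, and the replicate block called 7 lower and 1 higher, against 3.3% and 2.03% of all genes. Pcdhb16 lost its call without the wt embryo 12419 (adjusted p = 0.0657) and Pcdhgb6 on omission of any library but the gtf2i/gtf2i embryo 12419 (adjusted p up to 0.136). Beta genes are near copies of each other and gamma genes share their last exons, so reads may have been split among members.

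Among genes of axon guidance and lamination, Reln fell. Reelin, the secreted signal of Cajal-Retzius cells that orders cortical layers, was at 269, 302 and 338 CPM in gtf2i/gtf2i against 452, 465 and 539 CPM in wt, without overlap. It fell by 0.68 ± 0.10 (SE) on the log2 scale (adjusted p = 0.00697, edgeR's quasi-likelihood test) and kept its call on every omission. Its receptors Vldlr and Lrp8 and the adaptor Dab1 had 0.06, -0.04 and -0.15. Against 0.41% of all genes called higher and 0.53% lower, 1 of 20 ephrin and Eph receptor genes was called in each direction: the ligand Efna2 rose by 0.55 ± 0.11 and the ligand Efnb2 fell by 0.40 ± 0.08 (SE). Of 17 netrin, Slit and receptor genes, Ntng2, a membrane-anchored netrin, fell by 0.66 ± 0.14 (SE), and its relative Ntng1 had -0.71 ± 0.16 (SE, adjusted p = 0.0554, edgeR's quasi-likelihood test). Efna2, Efnb2 and Ntng2 lost their calls on omission of 3, 5 and 4 of the 6 libraries, the gtf2i/gtf2i embryo 11619 and the wt embryo 12419 among them for each, with adjusted p up to 0.151, 0.167 and 0.219. Of 27 semaphorins, plexins and neuropilins 0 were called (1 with DESeq2, and 11 at an unadjusted p under 0.05 in edgeR's quasi-likelihood test, against 2.65% and 14.4% of all genes), with a median of -0.24. The replicate block called 2 lower (3.3% of all genes), Plxna4, a semaphorin receptor, at -0.66 ± 0.17 and Sema3c, a secreted guidance cue, at -0.57 ± 0.15 (SE; adjusted p = 0.0804 and 0.0841 without, 0.00612 and 0.0367 with the block, edgeR's quasi-likelihood test). The 7 Ebf and Zfhx factors of Cajal-Retzius and other early neurons had 0 calls in edgeR's quasi-likelihood test and in DESeq2, 0 at an unadjusted p under 0.05, and a median of 0.09, with Ebf2 and Zfhx4 at 0.33 each.

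Of 12 red cell genes in the table, 2 were called higher and 0 lower, against 0.41% and 0.53% of all genes. The median was 0.37, and the replicate block called 6 higher (2.03% of all genes). Hbb-y, an embryonic globin of primitive red cells, was at 6658, 4166 and 4949 CPM in gtf2i/gtf2i against 3670, 2995 and 2632 CPM in wt and rose by 0.76 ± 0.16 (SE) on the log2 scale (adjusted p = 0.0392, edgeR's quasi-likelihood test). Slc4a1, the band 3 anion exchanger of red cells, was at 101, 86.4 and 61.8 CPM against 53.2, 49.96 and 37.5 CPM and rose by 0.83 ± 0.17 (SE, adjusted p = 0.0379, edgeR's quasi-likelihood test). Neither overlapped, and both lost their calls on omission of the gtf2i/gtf2i embryo 11619 or the wt embryo 12301 or 12419, and Slc4a1 also without the gtf2i/gtf2i embryo 12301 (adjusted p up to 0.175 and 0.178). The adult beta globins Hbb-bs and Hbb-bt had 0.07 ± 0.25 and 0.04 ± 0.29 (SE), while the embryonic alpha globin Hba-x had 0.68 ± 0.19 (SE, adjusted p = 0.0932, edgeR's quasi-likelihood test; 0.00758 with the block). The summed level of the list ran from 5913 to 9303 CPM in gtf2i/gtf2i and from 4269 to 5483 CPM in wt. The part of blood content in the other results was not tested.

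Other cell types were little represented among the calls. Of 20 endothelial genes only Vwf, von Willebrand factor, was called (0.41% of all genes were called higher), with a rise of 0.88 ± 0.19 (SE; adjusted p = 0.0458, edgeR's quasi-likelihood test; up to 0.205 on omission of single libraries, and kept only without the gtf2i/gtf2i embryo 12419). The list's median was 0.12, with 12 positive values, and the block called 3 higher (2.03% of all genes), among them Apln, a secreted peptide of growing vessels, at 0.77 ± 0.25 (SE; adjusted p = 0.148 without and 0.00799 with the block, edgeR's quasi-likelihood test). The defining junction genes Cdh5 and Pecam1 had -0.02 and -0.01, and the list's summed level was 821 to 1003 CPM in gtf2i/gtf2i and 734 to 887 CPM in wt. Of 19 genes of mesenchyme, meninges and pericytes, 6 of microglia, 7 of the oligodendrocyte lineage and 35 collagens and laminins, 0 were called, with medians of 0.19, 0.33, 0.19 and 0.16. At an unadjusted p under 0.05 in edgeR's quasi-likelihood test there were 6, 1, 2 and 7, and DESeq2 called 1, 0, 0 and 1, against 14.4% and 2.65% of all genes. The replicate block called 3, 0, 1 and 3 higher and 1, 0, 0 and 0 lower, against 2.03% and 3.3% of all genes. With the block, Crabp2, a retinoic acid carrier of the meninges, had an adjusted p of 0.00296 (log2 0.71), Olig2, an oligodendrocyte lineage factor, 0.0418 (0.43), Col5a2 0.0193 (0.43) and Col1a1 0.0464 (0.71) in edgeR's quasi-likelihood test. Acta2, smooth muscle actin, had 0.94, the microglial genes Tmem119 and Cx3cr1 had 0.56 and 0.51, and Sox8, a glial factor, had -0.49. The 1 pigment gene in the table, Dct, had -0.82 ± 0.26 (SE, adjusted p = 0.138, edgeR's quasi-likelihood test). The summed level of the mesenchymal list was 1343 to 2049 CPM in gtf2i/gtf2i and 1199 to 1422 CPM in wt.

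Of 39 cell cycle genes, 1 was called higher and 0 lower, against 0.41% and 0.53% of all genes, and the replicate block called 4 higher (2.03% of all genes). The median was 0.24 and 38 had a positive value, of which 26 were positive in all 3 pairs and 6 had groups that did not overlap, while 39.5% of all genes had 1 sign in all pairs and 17.1% did not overlap. Ccnd1, cyclin D1, which starts the cycle and is a reported target of TFII-I, was at 360, 363 and 283 CPM in gtf2i/gtf2i against 243, 241 and 202 CPM in wt. It rose by 0.55 ± 0.11 (SE) on the log2 scale without overlap (adjusted p = 0.0353, edgeR's quasi-likelihood test) and lost its call on every omission but that of the gtf2i/gtf2i embryo 12419 (adjusted p up to 0.175). Without that embryo 19 of the 39 were called higher, in a fit that called 3.61% of all genes higher. Ccnb2, a mitotic cyclin, had 0.53 ± 0.13 (SE, adjusted p = 0.0683; 0.0133 with the block). Of 57 replication-dependent histones, many of them near copies that share reads, 54 were positive with a median of 0.18, and 0 were called (0 with DESeq2, and 1 at an unadjusted p under 0.05 in edgeR's quasi-likelihood test, against 2.65% and 14.4% of all genes). Of other reported TFII-I targets, Hspa5, Atf6, Ezh2 and Kdr lay between -0.06 and 0.14.

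Other pathways held few calls or 0. Of 23 genes of endoplasmic reticulum stress, a response in which TFII-I is known to act, the median was 0.05 and the values lay between -0.10 and 0.21. Of 16 p53 targets the median was 0.14, and of 15 genes of the LSD1, CoREST and HDAC complexes, which TFII-I is known to bind, the median was -0.02. These 3 lists held 0, 5 and 1 genes at an unadjusted p under 0.05 in edgeR's quasi-likelihood test, against 14.4% of all genes, 0 called, and 0, 1 and 0 called by DESeq2. The replicate block called 0, 3 and 0 higher and 0, 0 and 1 lower, against 2.03% and 3.3% of all genes, among them the p53 targets Bbc3, a death-promoting protein, at 0.52 and Sesn2, a stress sensor, at 0.66 (adjusted p = 0.018 and 0.0361, edgeR's quasi-likelihood test) and Zmym3, a LSD1 complex member, at -0.30 (adjusted p = 0.035). Rest, the repressor that recruits CoREST, had 0.15, and Ero1l and Pdia3, oxidative folding enzymes, had 0.21 and 0.15. The 75 nuclear and 7 mitochondrial genes of oxidative phosphorylation had 0 calls (1 and 0 at an unadjusted p under 0.05, 0 with DESeq2) and medians of -0.01 and 0.02, and the 75 cytosolic ribosomal protein genes 0.11, with Rps4l the 1 called and Rpl22 at 0.19. Cox7a2l and Ndufa6 of the nuclear list had 0.27 and 0.21, and mt-Nd6 and mt-Nd5 of the mitochondrial list had 0.20 and 0.08. Of 29 imprinted genes 1 was called, against 0.41% of all genes called higher: H19, a fetal noncoding RNA, rose by 0.62 ± 0.11 (SE, adjusted p = 0.0199, edgeR's quasi-likelihood test), with 695, 545 and 487 CPM in gtf2i/gtf2i against 379, 363 and 380 CPM in wt. Igf2, the growth factor beside it, had 0.46, and the replicate block called 6 imprinted genes higher and 1 lower (2.03% and 3.3% of all genes), among them Dlk1, a Notch-related ligand, at 0.52 ± 0.12 (SE; adjusted p = 0.051 without and 0.00172 with the block, edgeR's quasi-likelihood test). H19 lost its call on omission of 4 libraries (gtf2i/gtf2i 11619 and all 3 wt), with adjusted p up to 0.0856.

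**Figure D4:**
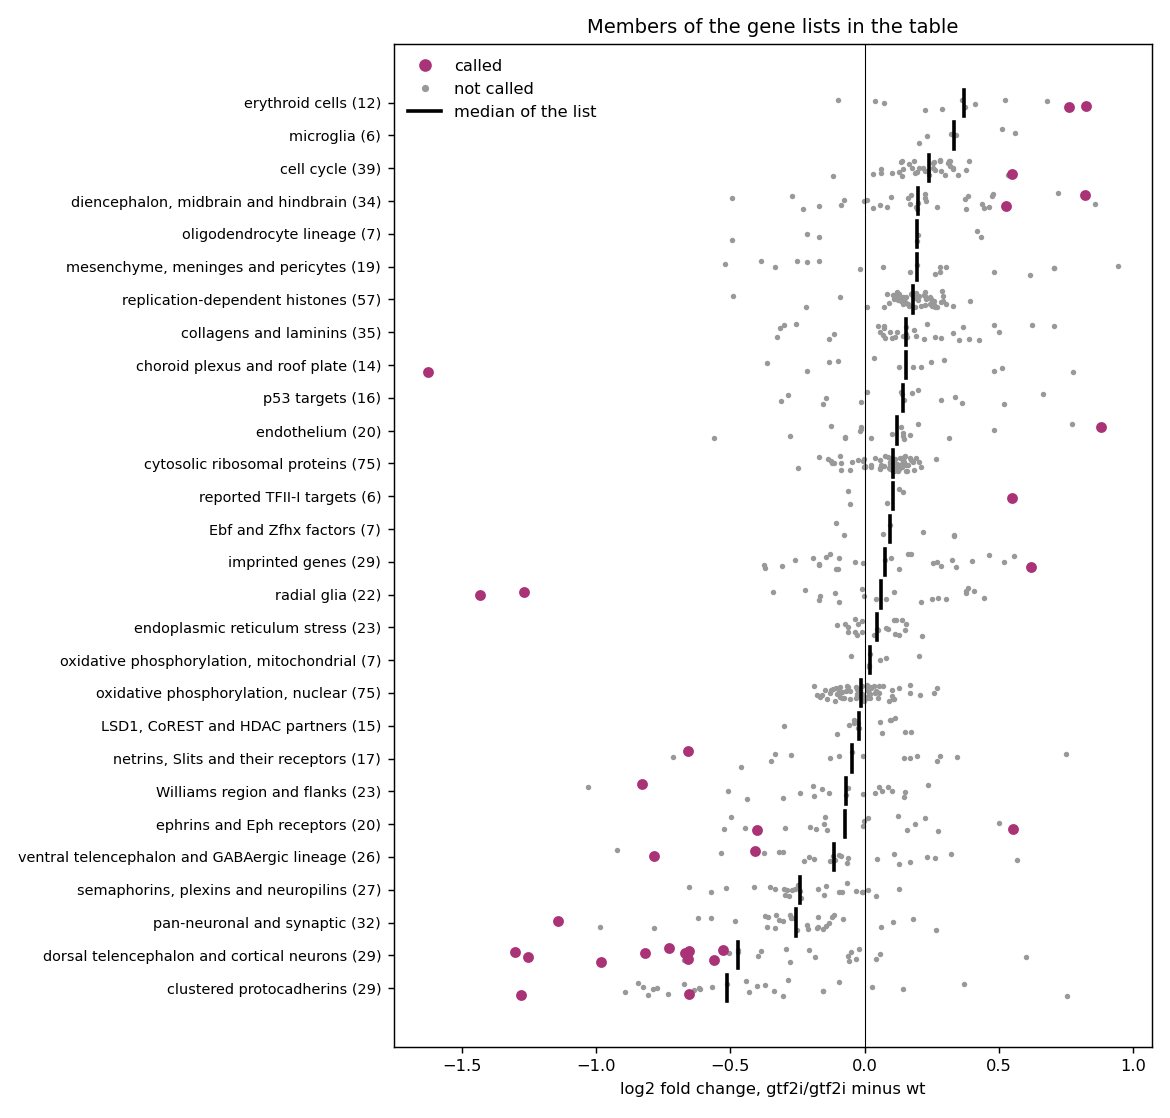
Log2 fold change of gtf2i/gtf2i against wt (horizontal axis) for the members of each list with at least 6 genes in the table (rows, number of genes in brackets); purple points are called, grey points are not, and black bars are medians. Gtf2i, Gtf2ird1 and Rps4l are left off the plot but counted in the medians; the called genes of the dorsal telencephalon all lie to the left of 0.

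In gtf2i embryos Gtf2i was the 1 gene called against wt, with 187 genes at an unadjusted p under 0.05 in edgeR's quasi-likelihood test. In fits added after seeing the data the replicate block called 2 genes and DESeq2 called 6, Gtf2ird1, Apobec3 and Kdm5c among the 6, and Gtf2i stayed the 1 gene on omission of each library. With the block, the gtf2i embryos stood 0.55 ± 0.09 (SE) above wt for Gtf2ird1 (adjusted p = 0.055) and 1.26 ± 0.21 above it for Apobec3 (adjusted p = 0.0837). Against gtf2i, 365 genes were called in gtf2i/gtf2i (3.12% of those tested), 156 higher and 209 lower. The comparisons share libraries, so their values are given side by side and are not independent. Neurod6 differed by -1.52 against gtf2i (adjusted p = 0.000104, edgeR's quasi-likelihood test) and by -1.30 against wt, Ttr by -1.95 (adjusted p = 8.77e-05) and -1.63, and Eomes by -0.91 (adjusted p = 0.00287) and -0.66. Fezf2 was called against gtf2i, with -0.69 (adjusted p = 0.013, edgeR's quasi-likelihood test).

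The effect was set beside that in embryos of the series labelled ird1/ird1, also E13.5 whole brain in strain FVB/ANTJ. They were compared with their own 3 wt embryos, and the difference between the effects was tested on all 18 RNA libraries. It was called for 20 genes (0.171% of those tested), 15 in the higher and 5 in the lower direction, with 1517 at an unadjusted p under 0.05. Rps4l, Apobec3, Pnpla6 and Gas2l1 had -0.33, -0.56, -0.16 and -0.27 in ird1/ird1, and their differences between effects were called. So were those of Neurod6, which had 0.08 in ird1/ird1, and Neurod2, which had -0.27. For Tbr1, Nfix and Nfib the ird1/ird1 values were -0.06, -0.16 and 0.33, and the differences had adjusted p of 0.101, 0.0847 and 0.0502 in edgeR's quasi-likelihood test. Gtf2ird1 was higher in the libraries labelled ird1/ird1 too, by 1.19 on the log2 scale (adjusted p = 3.23e-07), and the difference of 0.34 ± 0.13 (SE) from its rise in gtf2i/gtf2i had an adjusted p of 0.296.

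**Figure D5:**
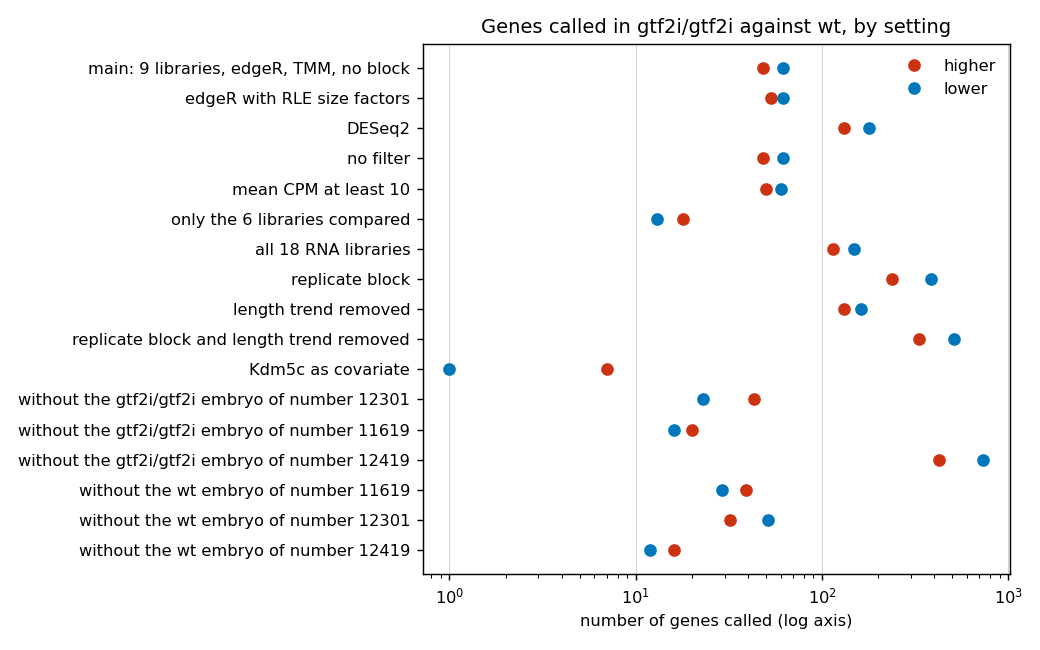
Number of genes called higher (red) and lower (blue) in gtf2i/gtf2i against wt (horizontal log axis) under each setting (rows), starting with the fit reported here. Omitting the gtf2i/gtf2i embryo 12419 gives the largest counts and the Kdm5c covariate the smallest.

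The calls depended on which embryo was included. Without the gtf2i/gtf2i embryo 12419, 1159 genes were called, all 110 among them. Without the gtf2i/gtf2i embryos 12301 and 11619, 66 and 36 were called, and without the wt embryos 11619, 12301 and 12419, 68, 83 and 28 were. Of the 110 genes, 27 were called under all 6 omissions, and 0 changed direction under any of the 16 settings.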

How the data were processed

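Total RNA of whole E13.5 brains was sequenced after removal of ribosomal RNA, per the labels' protocols. The deposited values are unnormalized counts of reads per gene, as whole numbers, 1 column per embryo; per the submitters' processing notes Trimmomatic, STAR, HTSeq and the mm10 build were used, and their versions and the strand setting are not given in the sources used here. Without a strand setting, overlapping and antisense genes cannot be told apart. The smallest count in each library of the cross was near 3 CPM (2.90 to 3.03 of the unscaled total), and a gene under such a minimum in any library is not analysed here. The authors' deposited table also gives 1 transcript length per gene, in bases, used to remove length trends and to count short transcripts. Gene positions come from RefSeq (GRCm38.p6), in which 11392 symbols were found, and 11663 of 11708 identifiers carried the same symbol in a table of Ensembl names. The 32 chromatin and input samples are not analysed here.

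Counts were scaled by TMM, passed through filterByExpr (0 genes removed) and compared by edgeR 4.0.16 (quasi-likelihood, R 4.3.3) on the 9 libraries of the cross, with 6 residual degrees of freedom and a biological coefficient of variation of 10.4%; the difference between the effects of the crosses was fitted on all 18. DESeq2 1.42.0 and edgeR served the alternatives. These were RLE scaling, DESeq2, no filter, a mean CPM of at least 10, 6 or 18 libraries, a replicate block, a length correction by a lowess trend, both together, Kdm5c as a covariate, and omission of each library. Deviations from the group means of gtf2i/gtf2i and wt embryos with the same title number correlated at 0.373, 0.104 and 0.514 over genes. On that ground the replicate block and the differences within numbers treated the numbers as pairing the embryos. The main fit did not pair them. The gtf2i/gtf2i embryo 12301 correlated better, at 0.199, with the wt embryo 11619. All 6 pairs of libraries within the compared groups differed beyond sampling noise, with a chi-square of 7.52 to 29.5 per degree of freedom. On simulated counts for 11708 genes the test recovered 47% of 66 genes changed by 0.5 on the log2 scale. It recovered 95.5% of 67 changed by 1 and 100% of 67 changed by 2, with 10 false calls. The simulation drew genes independently, with no effect shared by a title number or an embryo. It therefore does not give the recovery in these data, where embryos deviated over many genes together.

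Genes named are the TFII-I family, the 12 largest rises and falls among called genes whose groups do not overlap, every called member of a gene list, and in lists with fewer than 2 called members those with the smallest p until 2 are reached; all other genes named were chosen after their values were seen. Values of some genes that the rule names are not reported here. The gene lists were written from general knowledge. The comparison, the lists and the tests were chosen with earlier results of these data known. Motifs were searched on both strands in RefSeq promoters, which 80 of the 110 called genes had.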

Additional observations from a re-analysis of the deposited data

Results flagged for a closer look

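The difference between the gtf2i/gtf2i effect and the ird1/ird1 effect, each against its own wt embryos, was past the threshold for 9 of the named genes (edgeR's quasi-likelihood test on 18 libraries, Benjamini-Hochberg adjustment), 6 higher and 3 lower in gtf2i/gtf2i. On the log2 scale the difference was 2.98 ± 0.28 (SE) for Rps4l, with effects of 2.64 and -0.33, and 2.56 ± 0.28 for Apobec3, with effects of 2.00 and -0.56. It was 1.81 ± 0.31 for Nxt2 (1.69 and -0.11), 1.66 ± 0.16 for Pnpla6 (1.49 and -0.16), 1.505 ± 0.17 for Gas2l1 (1.23 and -0.27) and 1.40 ± 0.22 for Tmem267 (1.21 and -0.19). It was -0.97 ± 0.19 for Neurod2 (-1.25 and -0.27), -1.38 ± 0.21 for Neurod6 (-1.30 and 0.08) and -2.88 ± 0.10 for Gtf2i (-2.93 and -0.04). The adjusted p ran from 3.89e-14 for Gtf2i to 0.0318 for Neurod2. The groups of 3 embryos were too small for a test of single embryos that stand apart.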

How the results depend on the processing

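The 110 calls of gtf2i/gtf2i against wt (43.6% of them higher) became 310 with DESeq2, 262 with all 18 libraries, 31 with only the 6 libraries compared (58.1% higher) and 293 with the length trend removed. With Kdm5c as a covariate 8 genes were called (87.5% higher), and by omission of single libraries 28 to 1159, with 36.5% to 65.2% higher; the cause was not tested. In the paired analysis the replicate block gave 624 calls and the block with the length trend removed gave 845. Against gtf2i, 365 calls became 892 with the replicate block and 67 to 1376 on omission of single libraries. For gtf2i against wt, 1 call became 6 with DESeq2 and 2 with the replicate block and was 1 on omission of each library. For the difference between the effects, 20 calls became 84 with DESeq2, 83 with the replicate block and 12 to 723 on omission of single libraries. RLE scaling gave 115, and no filter and the CPM minimum gave 110 each. Over the named genes and settings, 1090 values kept their direction and their side of the threshold. Another 161 kept the direction but lost the call, and 79 kept it and gained a call. In 7 the direction changed for a gene not called in the main fit, and in 0 for a called gene. The block changed no direction among the 110, which it all called.

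The number of list members called under each setting was added after seeing the data. Dorsal telencephalon genes called lower were 12 with DESeq2, 4 with 6 libraries, 17 with the block and length correction and 0 with the Kdm5c covariate, where 178, 13, 513 and 1 of all 11708 genes were called lower. At 3 embryos a group and these depths, a change of 0.5 on the log2 scale could be missed, and the smallest counts carry an error of 27.7%.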
